A study of Nothobranchius furzeri with 25 samples.

Results

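Whole brains of mid-life turquoise killifish at 20 weeks were compared with those of young fish at 5 weeks, gene by gene, in the first of 2 count tables. The comparison took every library labelled with either age, 5 of 20 weeks and 5 of 5 weeks, which is 10 of the 25 libraries of the series, and differences are given as 20 weeks minus 5 weeks. The study followed brain ageing in Nothobranchius furzeri, an annual fish with a very short captive life span, at 5, 12, 20, 27 and 39 weeks. According to the methods all fish were males of the wild-derived strain MZM-04/10, 1 library came from 1 animal, and no fish was treated or mutant, so that the groups are defined by age. All were sampled fasted and at a fixed hour in the morning. TruSeq libraries were read from 1 end over 50 bases, and the reads were counted per annotated contig. A part of the titles carries a mark, w0w1, whose meaning is not given in the sources used here. It stands on 1 of the 5 libraries of 20 weeks (JM86) and on 1 of the 5 of 5 weeks (JM96). Library numbers fall in separate ranges, JM75 to JM86 at 20 weeks and JM96 to JM103 at 5 weeks. If they follow the order of collection or preparation, that order and age cannot be told apart.

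The fish brain, unlike that of mammals, keeps many zones in which radial glia divide and give rise to new neurons, and in killifish this activity is known to decline early in adult life. Cell division needs a spindle, which the Aurora kinases help to build, a checkpoint that holds chromosomes until they are attached, and a contractile ring that separates the daughter cells. Microglia are the resident macrophages of the brain, and oligodendrocytes wrap axons in myelin, a lipid-rich sheath that continues to be laid down as the animal grows.

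Of the 18228 contigs, 16484 were kept by edgeR's filter on low counts. They were tested with its quasi-likelihood test in 1 model of all ages. Levels are given in CPM, which are counts scaled to a common library size after TMM normalization. A gene counted as called where its adjusted p (Benjamini-Hochberg, over all genes tested) was under 0.05. In all, 2534 genes were up-regulated at 20 weeks (15.4% of those tested) and 2736 were down-regulated (16.6%), together 5270 genes or 32.0%. The changes were mostly small. The median size among called genes was 0.49 on the log2 scale, 3257 of them changed by less than 1.5-fold, and 760 by at least 2-fold (4.61% of genes tested). The tail of large changes lay on the lower side, with 122 genes at least 4-fold lower and 41 at least 4-fold higher at 20 weeks. In 3258 genes (19.8%) the 5 libraries of 20 weeks did not overlap those of 5 weeks. Library totals were 16653061 to 19538031 counts at 20 weeks and 16501691 to 20996007 at 5 weeks. Spearman's correlation of log2 CPM over the genes tested was 0.977 to 0.989 among libraries of 20 weeks, 0.981 to 0.991 among those of 5 weeks and 0.952 to 0.979 between the ages, each as a description over genes of paired libraries. Gene names were held for a part of the alphabet only, from A to C1QL4, so that 1905 tested genes could be named, of which 272 were higher and 289 lower. They are names of the best BLAST hit. A name such as (1 OF 2) marks 1 of several copies, between which reads may be split.

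**Figure D1:**
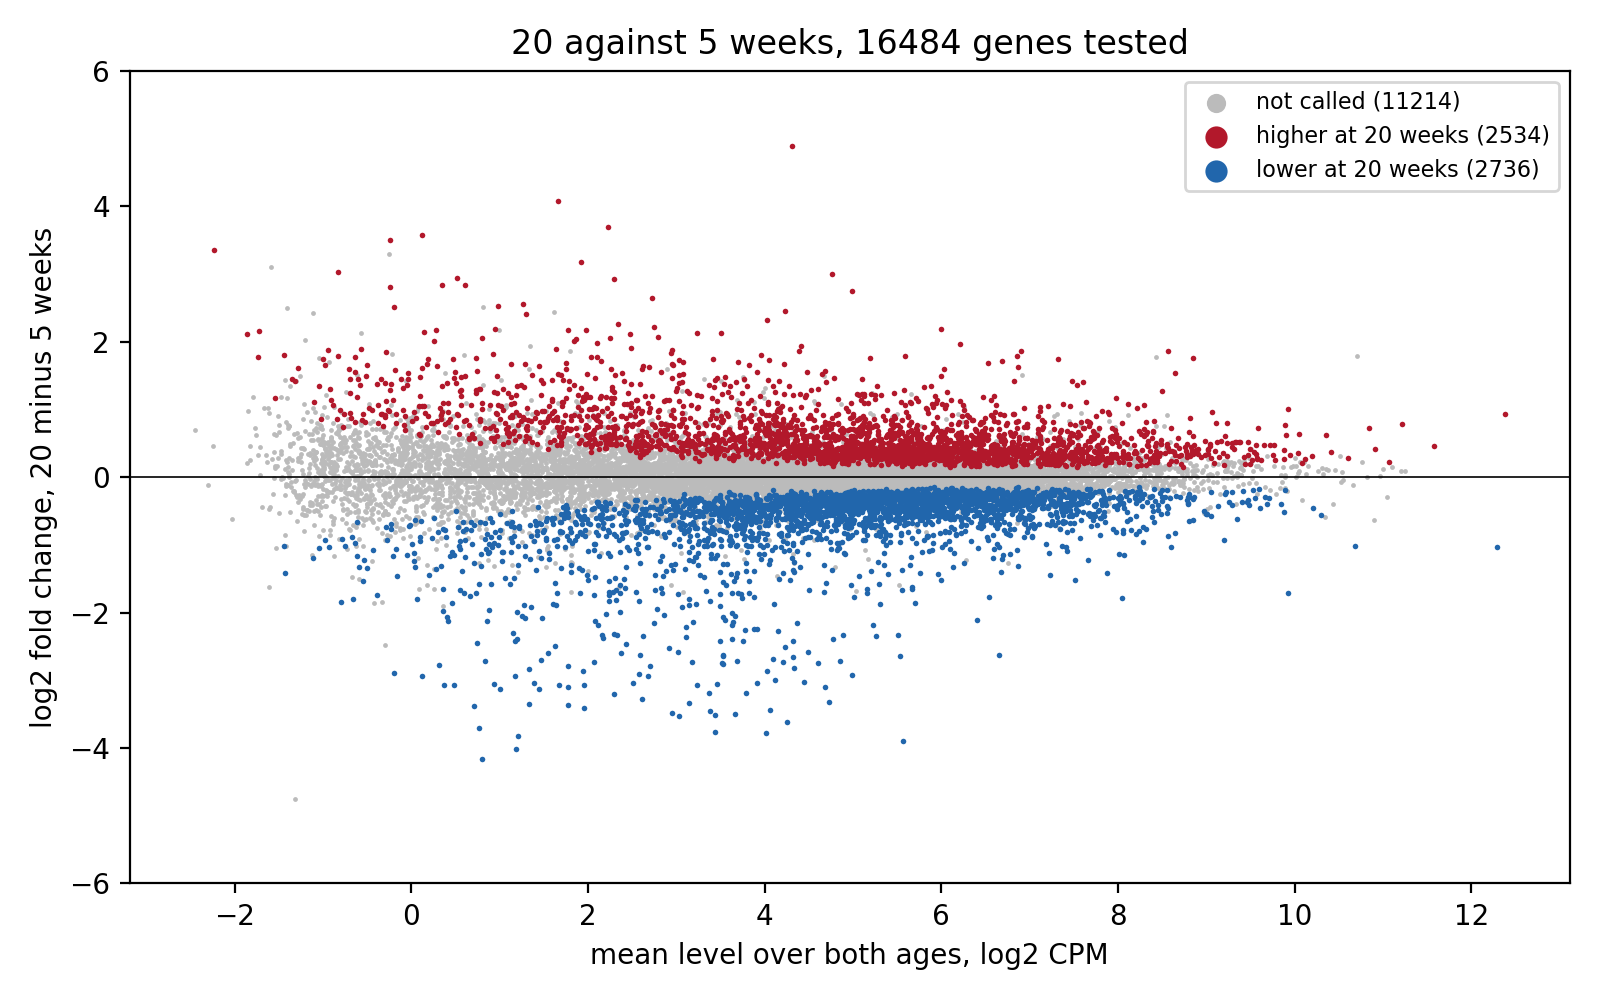
Each point is 1 of the 16484 genes tested, with its mean level over both ages (log2 CPM) on the x axis and its log2 fold change, 20 minus 5 weeks, on the y axis. Genes higher at 20 weeks (2534) are red, genes lower (2736) blue and genes not called (11214) grey. Below a log2 fold change of -2 lie more called genes (122) than above 2 (41).

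The named genes were read in 28 pathway lists. The background was 15.4% higher and 16.6% lower over all genes tested. In mitosis and cytokinesis 9 of 9 tested members were lower, in the list of microglia, leukocytes and complement 13 of 16 were higher, and among neurogenic and neuronal transcription factors 7 of 15 were lower and none higher. Of the synapse and axon genes 4 of 39 were called, and of the vacuolar proton pump genes 2 of 21. Shares near the 32.0% of all genes tested were found for apolipoproteins and lipid efflux, BMP, activin and Wnt signalling and ribosome biogenesis and splicing (33.3% each) and for the myelin list (30.0%). These are counts over chosen lists and carry no test of the list. The median log2 fold change over all genes tested was 0.01.

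**Figure D2:**
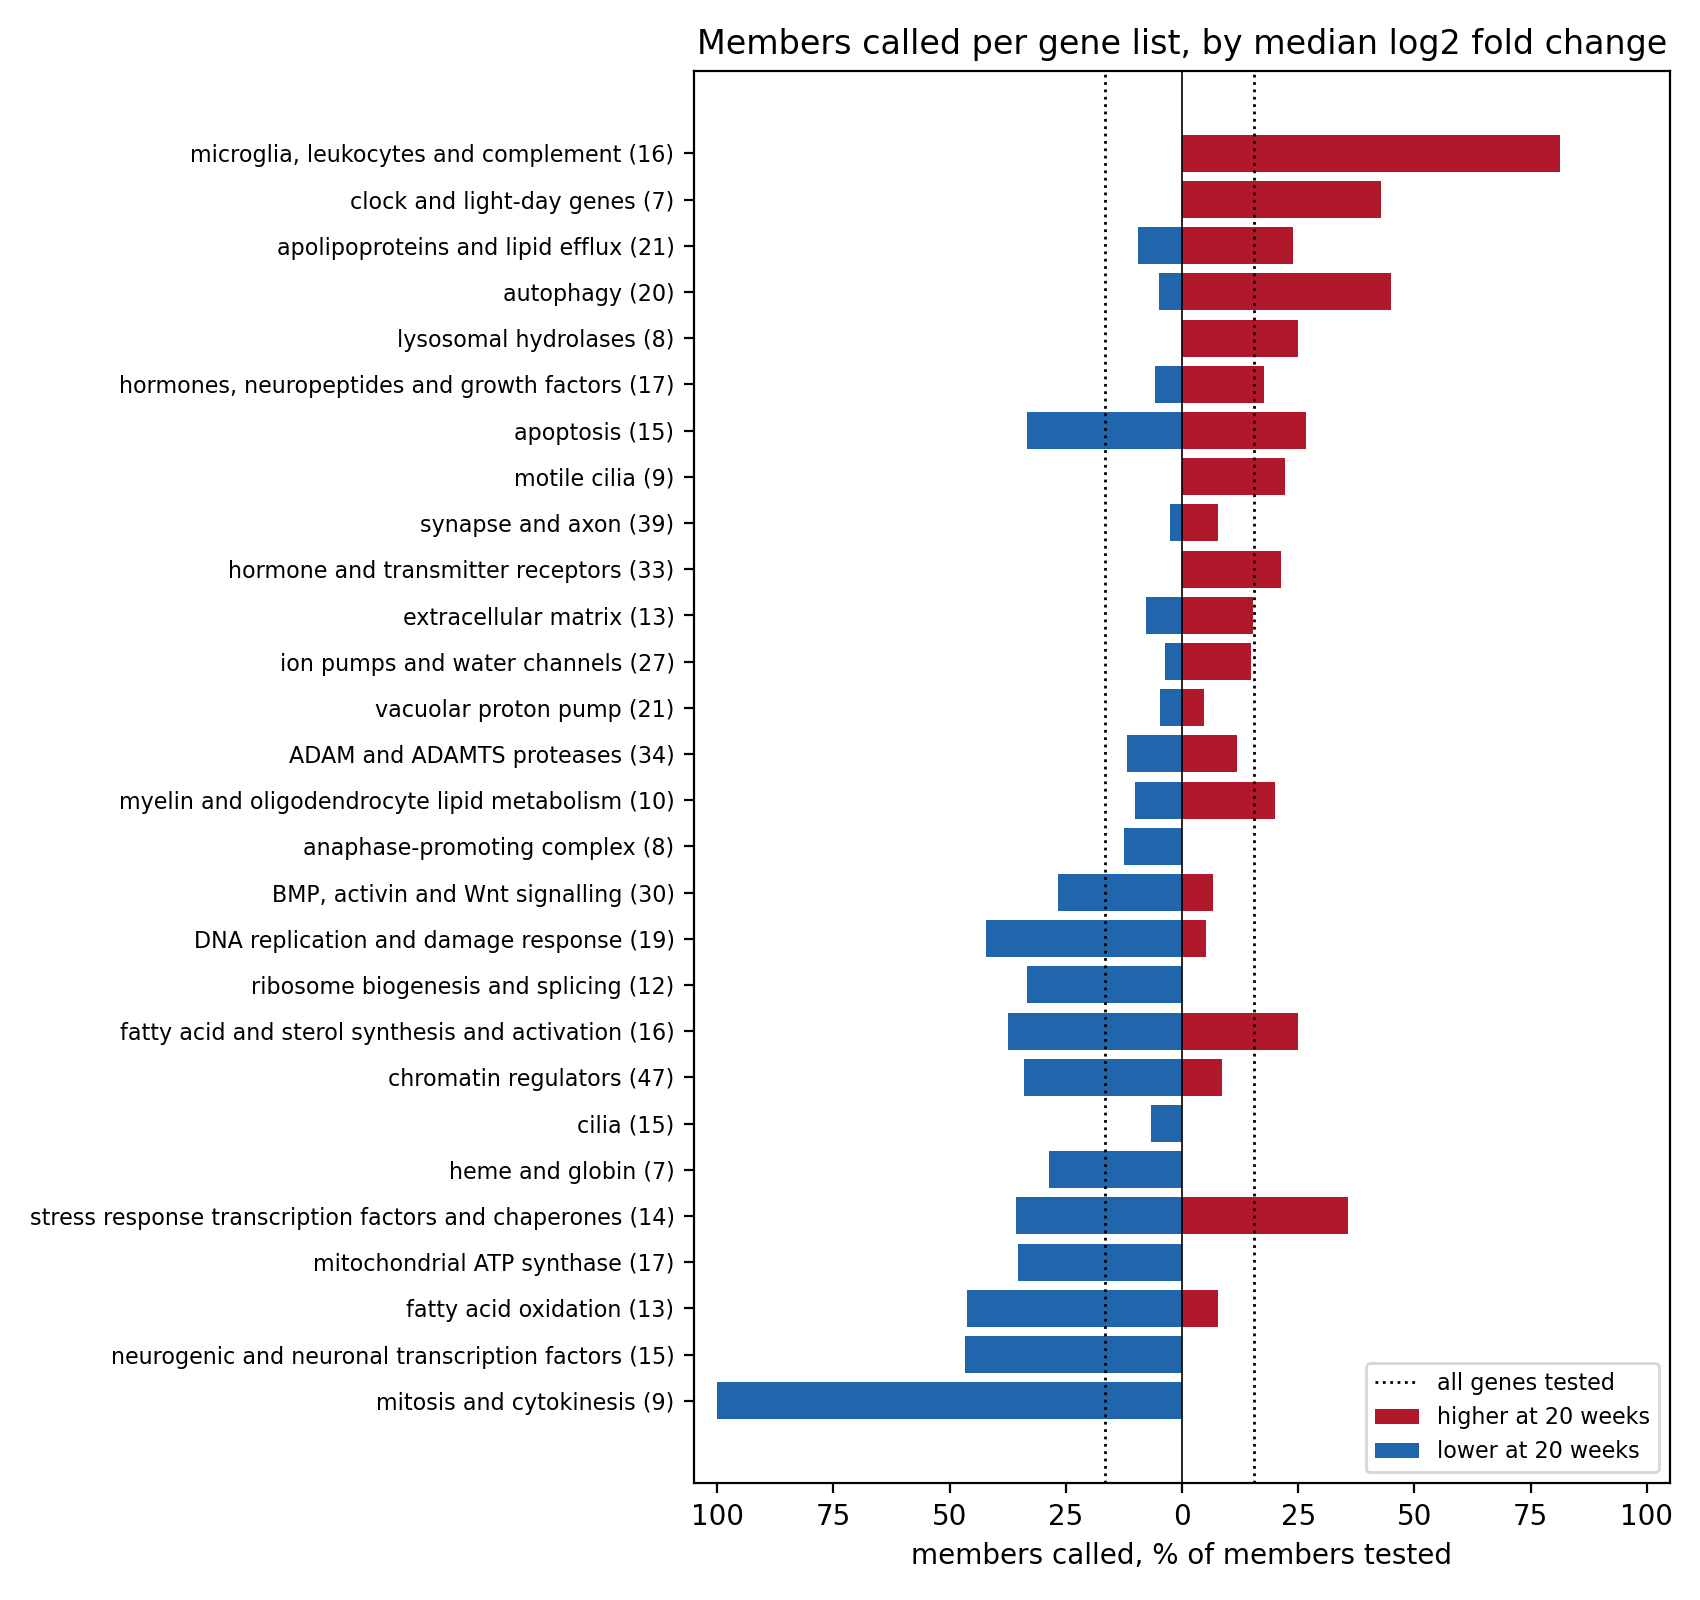
Bars give the share of tested members of each of the 28 pathway lists that was called lower (blue, to the left) or higher (red, to the right) at 20 weeks, in percent, with the number tested in brackets and the lists ordered by their median log2 fold change. Dotted lines mark the share over all genes tested, 16.6% lower and 15.4% higher. The mitosis list reaches 100% on the left and the microglia list lies furthest to the right.

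Genes of cell division were down-regulated. Of the 15 named genes of largest fall (called, a mean of at least 1 CPM at the higher age, no overlap), the 5 with the lowest log2 fold change were BORA, ASPM, ANKLE1, ARHGAP19 (2 OF 2) and ANLN. Lack of overlap was required of these 15, as of the 15 of largest rise below, and is no result for them. Values are given below in the order of libraries JM75, JM79, JM82, JM84 and JM86 for 20 weeks, and JM100, JM101, JM103, JM96 and JM97 for 5 weeks. BORA, a cofactor that switches on Aurora A before mitosis, had 0.154, 0.230, 0.542, 0.155 and 0.119 CPM at 20 weeks, against 4.81, 2.83, 4.00, 2.18 and 1.94 CPM at 5 weeks (log2 fold change -3.70, standard error 0.45, adjusted p = 1.9e-06). The highest 20-week library lay below the lowest 5-week library. All 20-week values of BORA lay under 1 CPM and rest on few reads, on which the size of this fall depends. ASPM, a spindle pole protein known in mammals for its role in neural progenitors, had 0.257, 2.07, 2.47, 2.33 and 0.835 CPM at 20 weeks, against 27.0, 10.2, 12.6, 14.8 and 15.8 CPM at 5 weeks (log2 fold change -3.34, standard error 0.53, adjusted p = 4.9e-05). Its 20-week libraries spread widely among themselves, with JM75 and JM86 lowest, and all stayed below the 5-week range. ANLN, the anillin scaffold of the contractile ring, had 0.978, 2.35, 6.08, 2.07 and 5.54 CPM at 20 weeks, against 35.1, 12.7, 28.2, 21.6 and 13.8 CPM at 5 weeks (log2 fold change -2.72, standard error 0.45, adjusted p = 9.5e-05). JM75 was again the lowest and JM82 the highest of the 20-week libraries, and the ages did not overlap.

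The Aurora kinases themselves were lower too. AURKA, the kinase of spindle poles, had 1.34, 4.08, 2.83, 2.85 and 2.68 CPM at 20 weeks, against 13.6, 7.01, 10.6, 7.27 and 6.09 CPM at 5 weeks (log2 fold change -1.70, standard error 0.24, adjusted p = 1.2e-05). AURKC, a kinase of the chromosomal passenger complex, averaged 5.26 ± 0.623 CPM at 20 weeks and 14.6 ± 5.13 CPM at 5 weeks (SD, n = 5 each; log2 fold change -1.47, adjusted p = 1.6e-06). Neither overlapped between the ages, which the rule for the 15 required of both. The 3 spindle checkpoint genes were lower as well. BUB3 averaged 18.7 ± 3.95 CPM at 20 weeks and 38.4 ± 7.47 CPM at 5 weeks (log2 fold change -1.04, adjusted p = 2.2e-05). BUB1B, the BubR1 kinase-like protein, averaged 10.3 ± 2.05 CPM at 20 weeks and 20.7 ± 5.21 CPM at 5 weeks (log2 fold change -1.01, adjusted p = 3.6e-05). BUB1 averaged 31.0 ± 2.03 CPM at 20 weeks and 41.6 ± 6.18 CPM at 5 weeks (log2 fold change -0.42, adjusted p = 6.2e-04). BOD1, which helps chromosomes to attach to both spindle poles, was the only member whose ages overlapped (9.66 to 15.1 CPM at 20 weeks and 14.8 to 20.8 CPM at 5 weeks; log2 fold change -0.41, adjusted p = 0.011). The list's median log2 fold change was -1.47, against 0.01 over all genes tested. Summed over its 9 members, the list took 84.9, 95.0, 96.0, 78.0 and 77.1 CPM in the 20-week libraries and 245, 160.0, 204, 164 and 142 CPM in the 5-week libraries. The young brains ranged more widely than the mid-life brains, with JM100 highest. In bulk RNA, fewer cells of a kind and less RNA per cell cannot be told apart, here or in the lists that follow.

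**Figure D3:**
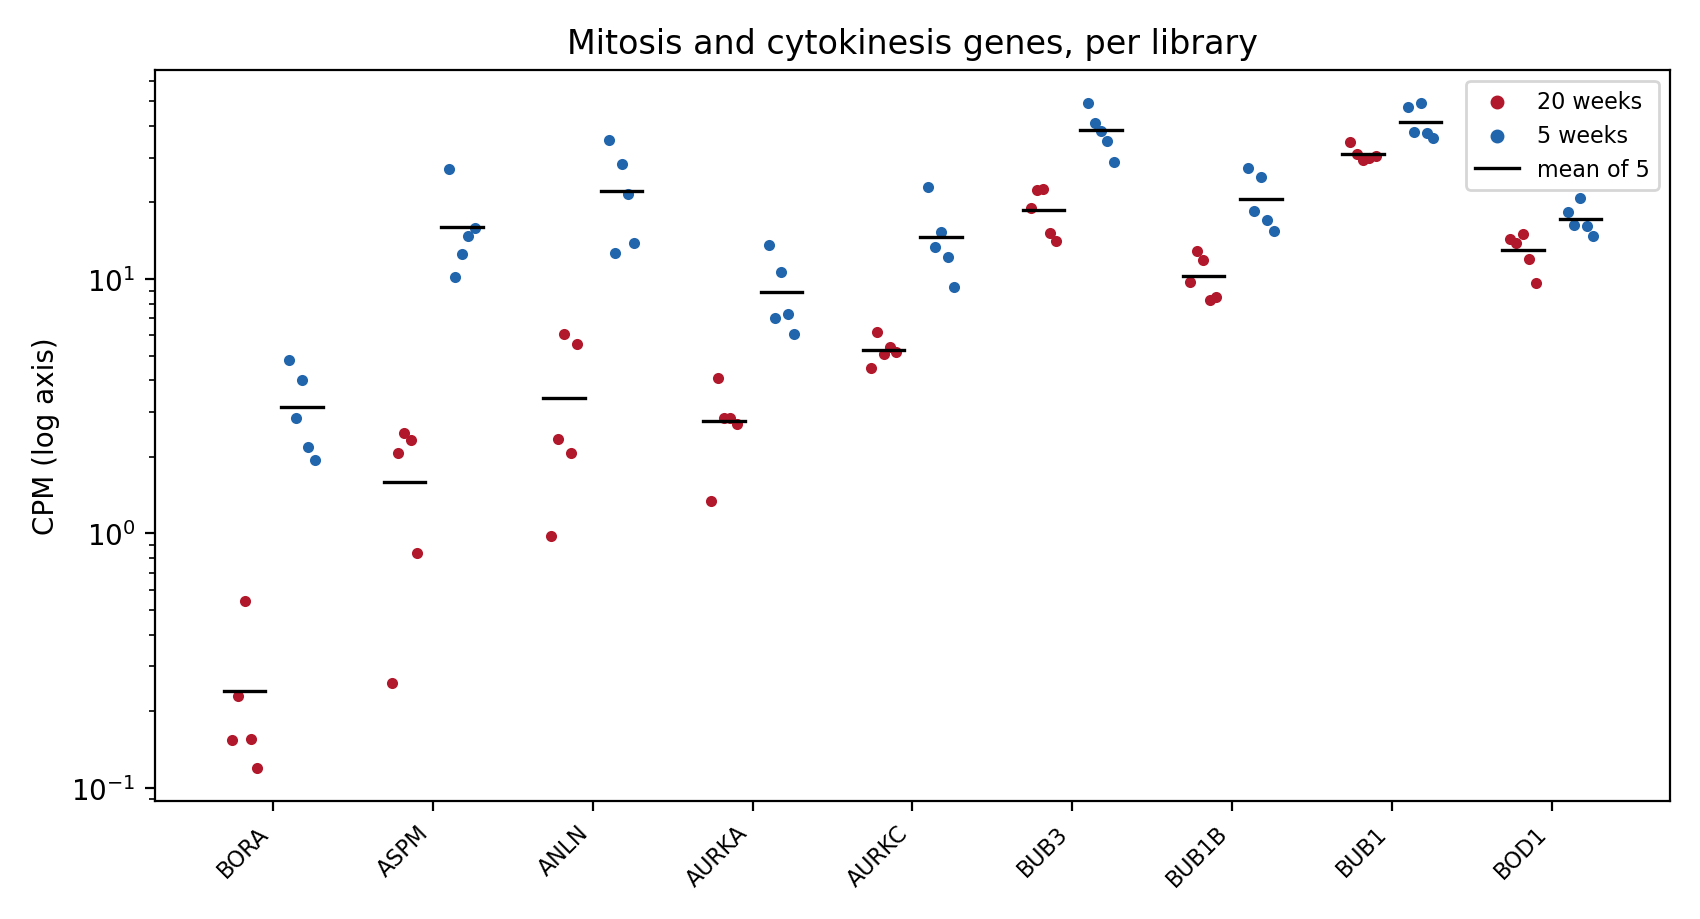
Points are single libraries of 20 weeks (red, left) and 5 weeks (blue, right) for the 9 mitosis and cytokinesis genes, in CPM on a log axis, and black lines are the means of 5. Genes are ordered by log2 fold change, from -3.70 for BORA to -0.41 for BOD1, the 1 gene of the 9 whose ages overlap.

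Further genes stood among the 15 with the largest fall. ANKLE1, a nuclease, averaged 1.64 ± 0.388 CPM at 20 weeks and 11.4 ± 2.76 CPM at 5 weeks (log2 fold change -2.79, standard error 0.27, adjusted p = 1.1e-07). ARHGAP19 (2 OF 2), a GTPase-activating protein known from cytokinesis, averaged 0.311 ± 0.171 CPM at 20 weeks and 2.17 ± 0.651 CPM at 5 weeks (log2 fold change -2.78, adjusted p = 2.7e-05). C1H15ORF23, whose human counterpart encodes a kinetochore protein, averaged 2.61 ± 0.560 CPM at 20 weeks and 9.33 ± 2.91 CPM at 5 weeks (log2 fold change -1.83, adjusted p = 4.2e-05). C1ORF135, whose human counterpart binds Aurora A, averaged 0.847 ± 0.244 CPM at 20 weeks and 2.55 ± 0.362 CPM at 5 weeks (log2 fold change -1.58, adjusted p = 1.2e-04). No library of one age reached the other in these genes, as the rule that named them required. C13H6ORF108, whose human counterpart encodes a nucleotide hydrolase, had a log2 fold change of -1.81 and ANKRD10A, an ankyrin repeat gene, of -1.83. A8HG53_ORYLA, named after a medaka protein, had -1.67. ARHGEF15 (1 OF 2), a gene known from endothelium, averaged 7.26 ± 1.69 CPM at 20 weeks and 20.96 ± 5.26 CPM at 5 weeks (log2 fold change -1.53, adjusted p = 8.7e-07). It was also the 1 of 7 endothelial marker genes that was called, a share of 14.3% beside 32.0% over all genes tested. The summed level of those markers was 153 to 185 CPM at 20 weeks and 150.0 to 182 CPM at 5 weeks.

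Genes of DNA replication and the damage response were lower in part. Of 19 members 8 were lower and 1 was higher, a share of 47.4% beside 32.0% over all genes tested. The median log2 fold change was -0.12. BRIP1, the helicase partner of BRCA1, had 3.35, 2.76, 4.10, 3.16 and 2.80 CPM at 20 weeks, against 13.6, 9.96, 10.9, 8.07 and 9.18 CPM at 5 weeks (log2 fold change -1.67, standard error 0.20, adjusted p = 2.0e-06). The 20-week libraries lay close together and well below all young brains. BARD1, which forms a heterodimer with BRCA1, averaged 1.68 ± 0.571 CPM at 20 weeks and 3.86 ± 0.871 CPM at 5 weeks (log2 fold change -1.19, adjusted p = 0.0013). BRCA1 itself averaged 3.90 ± 0.689 CPM at 20 weeks and 6.86 ± 1.09 CPM at 5 weeks (log2 fold change -0.81, adjusted p = 3.2e-04). ATAD5A, which unloads the replication clamp, averaged 18.1 ± 2.15 CPM at 20 weeks and 33.6 ± 5.02 CPM at 5 weeks (log2 fold change -0.89, adjusted p = 7.7e-05). APEX2 (log2 fold change -0.55), BRCA2 (-0.51) and ATM, the kinase that signals double-strand breaks (-0.43), were also lower, with overlapping libraries. The call of BRCA2 ended without 20 weeks replicate JM84 (adjusted p of 0.056). ATMIN, a cofactor of ATM, was the higher one (log2 fold change 0.41, adjusted p = 0.038), and its call ended without 20 weeks replicates JM79, JM82, JM84 or JM86 or 5 weeks replicates JM100, JM101, JM96 or JM97 (adjusted p between 0.053 and 0.10). Of 8 subunits of the anaphase-promoting complex, which marks mitotic proteins for destruction but also works in neurons that no longer divide, 1 was called, ANAPC2 (log2 fold change -0.65, adjusted p = 0.0067). The share called was 12.5%, beside 32.0% over all genes tested, and this list spanned log2 fold changes of -0.65 to 0.08.

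Proneural and neuronal transcription factors were lower in part. The list had 7 of 15 members lower, 0 higher and a median log2 fold change of -0.40. ASCL1B, a proneural factor of dividing progenitors, had 7.72, 2.93, 4.10, 4.55 and 2.92 CPM at 20 weeks, against 25.8, 12.9, 24.7, 15.2 and 14.7 CPM at 5 weeks (log2 fold change -2.06, standard error 0.31, adjusted p = 2.6e-05). JM75, lowest for ASPM and ANLN, was the highest of the 20-week libraries here, and still below every young brain. Its second copy ASCL1A had 6.49, 7.12, 4.88, 2.23 and 1.31 CPM at 20 weeks, against 12.1, 8.13, 10.6, 9.39 and 9.13 CPM at 5 weeks (log2 fold change -1.16, standard error 0.39, adjusted p = 0.025), without overlap, but the call ended without 20 weeks replicates JM84 or JM86 or 5 weeks replicate JM100 (adjusted p between 0.056 and 0.070). BCL11AB, a zinc finger factor of projection neurons in mammals, averaged 18.1 ± 1.64 CPM at 20 weeks and 38.2 ± 5.85 CPM at 5 weeks (log2 fold change -1.07, adjusted p = 2.1e-06). BHLHE22, a neuronal helix-loop-helix factor, averaged 35.5 ± 16.2 CPM at 20 weeks and 69.7 ± 4.08 CPM at 5 weeks (log2 fold change -0.97, adjusted p = 0.0025), with JM79 lowest at 20 weeks. ATOH1C, a copy of the proneural gene of cerebellar granule cells, averaged 1.77 ± 0.780 CPM at 20 weeks and 4.11 ± 0.677 CPM at 5 weeks (log2 fold change -1.21, adjusted p = 0.036), and its call ended without 20 weeks replicates JM75, JM82, JM84 or JM86 or 5 weeks replicates JM100, JM101 or JM96 (adjusted p between 0.054 and 0.093). Of 6 markers of neurons in general 1 was lower, a share of 16.7% beside 32.0% over all genes tested, with a median log2 fold change of -0.05. That member was BASP1, a membrane protein of growing axons, which averaged 778 ± 119.6 CPM at 20 weeks and 1112 ± 100.97 CPM at 5 weeks (log2 fold change -0.51, adjusted p = 0.0020).

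In the list of BMP, activin and Wnt signalling 8 of 30 members were lower and 2 higher. BMP3, a ligand of the family, averaged 3.56 ± 1.21 CPM at 20 weeks and 7.28 ± 1.29 CPM at 5 weeks (log2 fold change -1.03, adjusted p = 0.0031). APCDD1, a Wnt inhibitor at the cell surface, averaged 26.4 ± 7.32 CPM at 20 weeks and 43.8 ± 7.58 CPM at 5 weeks (log2 fold change -0.74, adjusted p = 0.0030). BCL9, a co-activator of beta-catenin, differed by a small amount with little spread, at 107.8, 106, 111, 106 and 104 CPM at 20 weeks, against 152, 151, 144, 145 and 136 CPM at 5 weeks (log2 fold change -0.45, adjusted p = 7.9e-06). BMP10 (2 OF 2) was higher (log2 fold change 0.92, adjusted p = 0.014), a call that ended without 5 weeks replicate JM100 (adjusted p of 0.052). BMP4 did not pass the test (log2 fold change -0.43, adjusted p = 0.11), and was called without 20 weeks replicate JM79 (adjusted p of 0.023).

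Among 47 chromatin regulators 16 were lower and 4 higher, a share of 42.6% beside 32.0% over all genes tested. The median log2 fold change was -0.13. Both copies of AEBP2, a cofactor of the Polycomb repressive complex, were lower, with 6.01 ± 2.70 CPM at 20 weeks and 13.02 ± 2.78 CPM at 5 weeks for AEBP2 (log2 fold change -1.12, adjusted p = 0.0031) and 17.1 ± 2.40 CPM at 20 weeks and 26.6 ± 3.29 CPM at 5 weeks for AEBP2 (2 OF 2) (log2 fold change -0.64, adjusted p = 1.5e-04). BAZ1A and BAZ1B, subunits of nucleosome-sliding complexes, had log2 fold changes of -0.80 and -0.69. Of 12 genes of ribosome biogenesis and splicing 4 were lower and none higher. Those of largest change were BMS1L, which acts in assembly of the small ribosomal subunit (log2 fold change -0.63, adjusted p = 8.1e-04), AQR, a helicase of the spliceosome (log2 fold change -0.63, adjusted p = 6.1e-06), and BOP1, which acts in assembly of the large subunit (log2 fold change -0.43, adjusted p = 0.0095). AQR averaged 43.2 ± 4.47 CPM at 20 weeks and 66.9 ± 10.5 CPM at 5 weeks, without overlap. BYSL was the remaining call (log2 fold change -0.26, adjusted p = 0.027), and it ended without 20 weeks replicates JM75, JM82 or JM84 or 5 weeks replicates JM100 or JM101 (adjusted p between 0.051 and 0.082).

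Genes of microglia, leukocytes and complement were up-regulated. Of 16 tested members 13 were higher and none lower, all 16 had a positive log2 fold change, and the median was 0.94. APCS, a pentraxin that binds amyloid and activates complement, had 34.8, 19.6, 17.8, 15.7 and 39.7 CPM at 20 weeks, against 5.47, 9.90, 6.57, 7.50 and 8.90 CPM at 5 weeks (log2 fold change 1.73, standard error 0.29, adjusted p = 9.8e-05). JM75 and JM86 stood highest, and every 20-week library exceeded the young range. AIF1, the microglial marker also known as Iba1, had 10.0, 7.004, 8.49, 10.2 and 17.0 CPM at 20 weeks, against 2.57, 3.54, 3.71, 3.26 and 4.80 CPM at 5 weeks (log2 fold change 1.56, standard error 0.22, adjusted p = 1.4e-05). Here JM86 alone stood out, and again the ages did not overlap. C1QC, a chain of the first complement component, had 19.6, 7.87, 6.75, 8.54 and 23.1 CPM at 20 weeks, against 5.25, 8.19, 4.68, 5.15 and 5.07 CPM at 5 weeks (log2 fold change 1.22, adjusted p = 0.015). Its 20-week values fell into a high pair, JM75 and JM86, and a group of 3 near the young brains, and the call ended without 20 weeks replicate JM86 (adjusted p of 0.069). C1QB, another chain, averaged 9.22 ± 0.288 CPM at 20 weeks and 7.54 ± 1.25 CPM at 5 weeks and did not pass the test (adjusted p = 0.054), but was called without 5 weeks replicate JM103 (adjusted p of 0.012).

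Signalling genes of lymphoid and myeloid cells were among those called. ARHGAP9, a Rac inhibitor of blood cells, averaged 14.9 ± 5.96 CPM at 20 weeks and 5.80 ± 2.29 CPM at 5 weeks (log2 fold change 1.36, adjusted p = 0.0069). BLNK, an adaptor of the B-cell receptor, averaged 12.4 ± 3.35 CPM at 20 weeks and 5.26 ± 2.33 CPM at 5 weeks (log2 fold change 1.24, adjusted p = 0.0046). BATF3, a transcription factor of dendritic cells, had 5.20, 5.68, 4.22, 9.94 and 7.93 CPM at 20 weeks, against 2.84, 3.65, 3.14, 2.86 and 2.91 CPM at 5 weeks (log2 fold change 1.10, standard error 0.20, adjusted p = 2.4e-04), with JM84 highest. BIN2B, a membrane-bending protein of microglia, averaged 7.20 ± 1.72 CPM at 20 weeks and 4.19 ± 0.571 CPM at 5 weeks (log2 fold change 0.78, adjusted p = 0.0029). APBB1IP, an integrin adaptor of leukocytes, averaged 11.1 ± 2.63 CPM at 20 weeks and 7.32 ± 0.941 CPM at 5 weeks (log2 fold change 0.60, adjusted p = 0.0059). ALOX5AP, needed for leukotriene synthesis, had the largest log2 fold change of the list (1.77, adjusted p = 0.028) at a low level, 1.00 ± 0.610 CPM at 20 weeks and 0.284 ± 0.206 CPM at 5 weeks, and its call ended without 20 weeks replicates JM75 or JM86 or 5 weeks replicates JM100 or JM96 (adjusted p between 0.055 and 0.10). BATF, a relative of BATF3 named here after its values were seen for 1 odd library, was not called. It had 7.26, 0.0574, 12.0, 5.95 and 9.66 CPM at 20 weeks, against 6.40, 5.01, 6.34, 6.81 and 6.41 CPM at 5 weeks, so that JM79 was nearly without it. Summed over the 16 members, the list took 234, 184, 204, 194 and 285 CPM at 20 weeks and 118, 145, 135.2, 131 and 130.0 CPM at 5 weeks, and the lowest mid-life brain lay above the highest young one. The 3 red cell markers lay on the other side. These genes, BA1, ALAS2 and BPGM, a globin, a heme synthesis enzyme and a glycolytic enzyme, summed to 29.3 to 83.6 CPM at 20 weeks and 96.9 to 166 CPM at 5 weeks. In the wider list of heme and globin genes 2 of 7 were lower and none higher, a share of 28.6% beside 32.0% over all genes tested. There 4 members lay below 0 and 3 above. That list summed to 1994 to 2904 CPM at 20 weeks and 2320 to 2697 CPM at 5 weeks, with overlap. BA1 had 7.83, 23.1, 20.5, 22.4 and 41.3 CPM at 20 weeks, against 69.4, 54.1, 107, 52.6 and 62.8 CPM at 5 weeks, without overlap, and missed the threshold (log2 fold change -1.59, adjusted p = 0.053), but it was called without 20 weeks replicate JM86 (adjusted p of 0.042), in a fit of the 10 libraries alone (0.0056), without the 6 marked libraries (0.023), with DESeq2 (0.047) and with library totals alone (0.048). In the other 16 of 21 alternatives BA1 was not called, with an adjusted p of up to 0.12. ALAS2 was lower (log2 fold change -0.90, adjusted p = 0.047), a call that ended without 20 weeks replicates JM75, JM79, JM82 or JM84 or 5 weeks replicates JM100, JM101, JM103 or JM97 (adjusted p between 0.065 and 0.12), with robust estimation (0.056) and with upper-quartile factors (0.051), and BPGM was lower (log2 fold change -0.37, adjusted p = 0.019), a call that ended without 20 weeks replicate JM75 (adjusted p of 0.063).

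**Figure D4:**
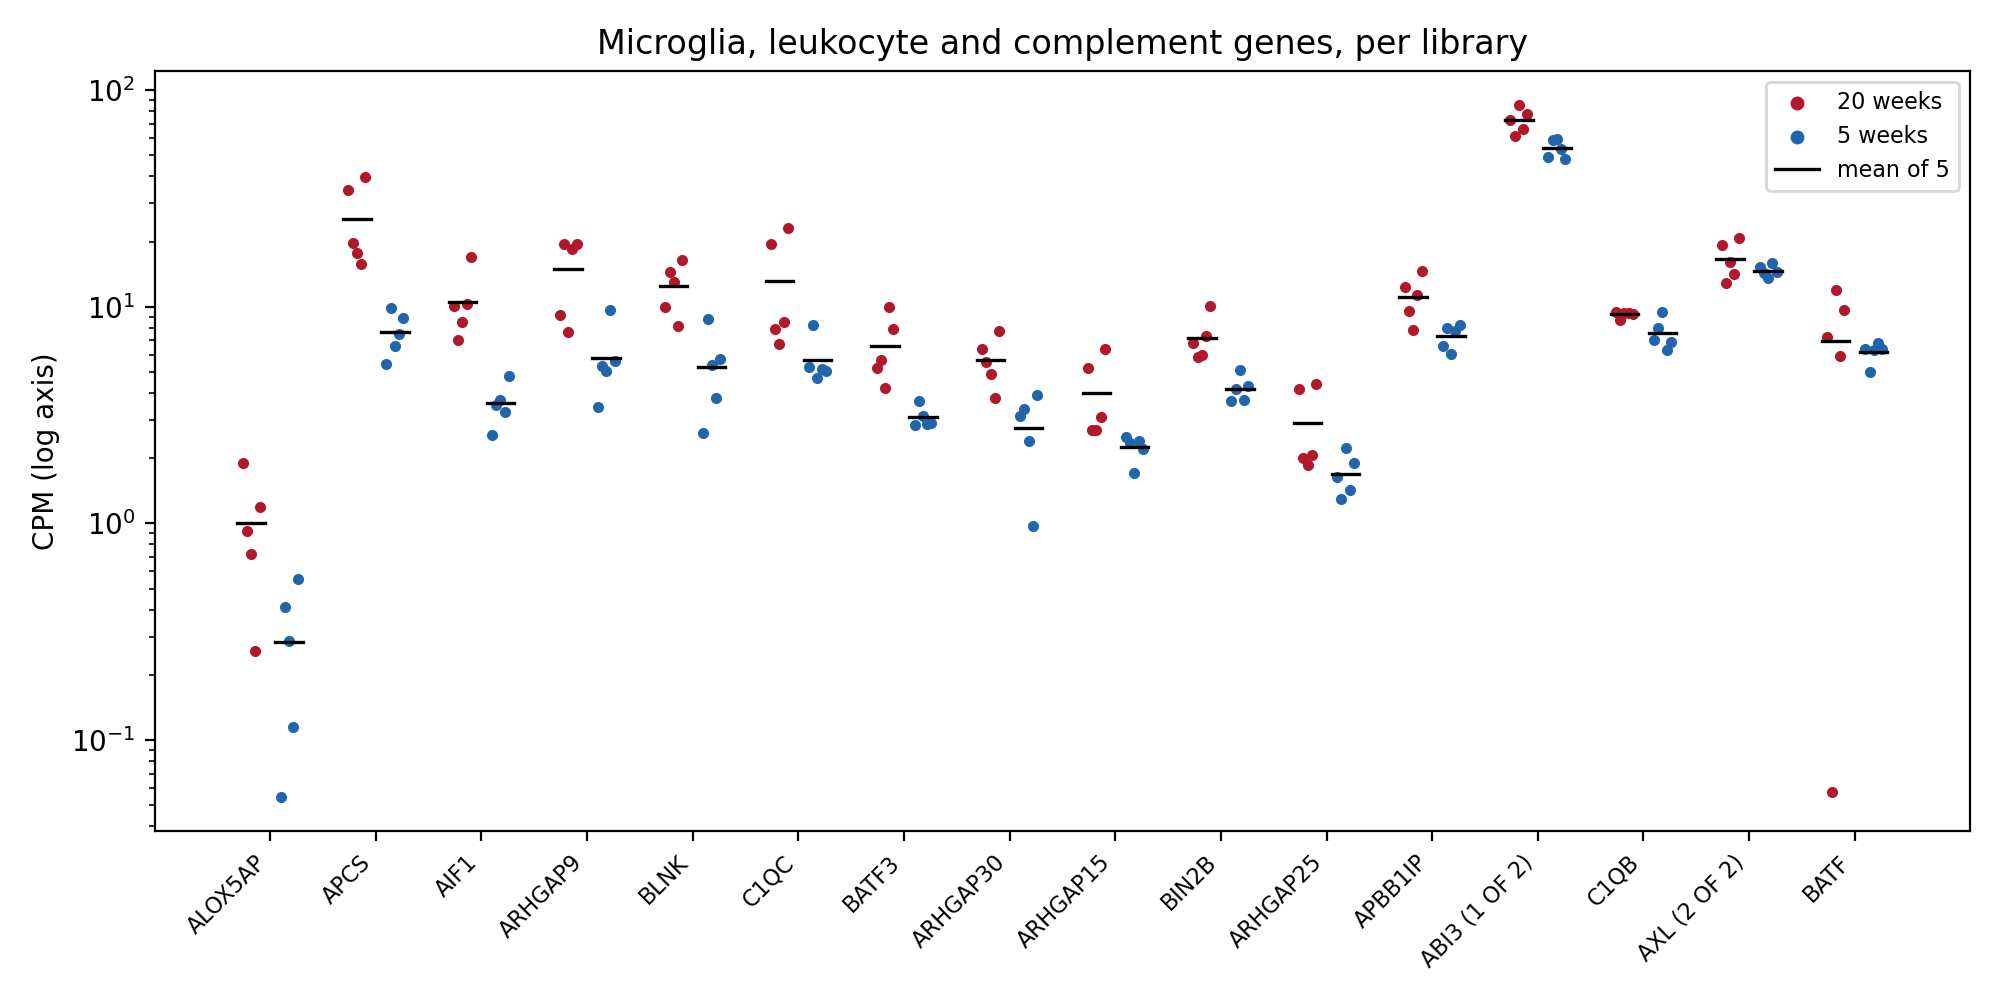
Points are single libraries of 20 weeks (red, left) and 5 weeks (blue, right) for the 16 genes of microglia, leukocytes and complement, in CPM on a log axis, ordered by log2 fold change, and black lines are the means of 5. The 13 genes on the left of C1QB were called higher at 20 weeks, while C1QB, AXL (2 OF 2) and BATF were not.

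Of 21 genes of apolipoproteins and lipid efflux 5 were higher and 2 lower, a share of 33.3% beside 32.0% over all genes tested. ABCA1A, a pump that loads cholesterol onto apolipoproteins, had 579, 356, 346, 513 and 773 CPM at 20 weeks, against 128, 189, 231, 258 and 256 CPM at 5 weeks (log2 fold change 1.27, standard error 0.25, adjusted p = 4.5e-04), without overlap and with JM86 highest. Its second copy ABCA1B pointed the other way, at 16.7, 112, 100.7, 52.5 and 35.9 CPM at 20 weeks, against 189, 144, 153, 151 and 128 CPM at 5 weeks. The ages did not overlap in this copy either, but the spread at 20 weeks was large and it missed the threshold (log2 fold change -1.27, adjusted p = 0.051), being called without 20 weeks replicates JM79 or JM82 (adjusted p between 0.024 and 0.036). APOEB, a fish apolipoprotein E, averaged 582 ± 166 CPM at 20 weeks and 319 ± 23.9 CPM at 5 weeks (log2 fold change 0.87, adjusted p = 0.0050). APOF averaged 159.7 ± 22.8 CPM at 20 weeks and 110.0 ± 5.12 CPM at 5 weeks (log2 fold change 0.54, adjusted p = 9.8e-04). The sterol pump ABCG4A averaged 210.5 ± 24.4 CPM at 20 weeks and 146 ± 13.7 CPM at 5 weeks (log2 fold change 0.52, adjusted p = 0.0016). Lower were ABCA7, a phospholipid pump of phagocytes (19.2 ± 1.88 CPM at 20 weeks and 30.5 ± 0.972 CPM at 5 weeks; log2 fold change -0.66, adjusted p = 6.5e-04), and APOA1, the main protein of high-density lipoprotein (1024 ± 109 CPM at 20 weeks and 1504 ± 260.2 CPM at 5 weeks; log2 fold change -0.55, adjusted p = 0.0076). APOL2 had 2.32, 0.344, 0.361, 0.621 and 7.51 CPM at 20 weeks, against 0.273, 0.236, 0.571, 0.172 and 0.277 CPM at 5 weeks (log2 fold change 2.84, adjusted p = 0.0043), with JM86 and JM75 high and the other 3 near the young level, and its call ended without 20 weeks replicate JM86 (adjusted p of 0.054).

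Myelin metabolism was represented by few named genes, of which ASPA rose most. ASPA, which releases acetate for myelin lipids from N-acetylaspartate, had 50.9, 79.9, 63.5, 58.6 and 57.1 CPM at 20 weeks, against 24.8, 24.6, 29.9, 22.9 and 29.2 CPM at 5 weeks (log2 fold change 1.24, standard error 0.19, adjusted p = 3.7e-05). All mid-life brains lay above all young ones, JM79 highest. It was the single tested member of the oligodendrocyte markers. Of 10 genes of the myelin list 2 were higher and 1 lower, a share of 30.0% beside 32.0% over all genes tested. Below 0 lay 6 of the 10 and above 0 lay 4, with a median log2 fold change of -0.06. The list summed to 709 to 889 CPM at 20 weeks and 750 to 855 CPM at 5 weeks. ASAH1, the lysosomal acid ceramidase, was the other higher one, at 84.7 ± 16.9 CPM at 20 weeks and 52.6 ± 5.43 CPM at 5 weeks (log2 fold change 0.69, adjusted p = 2.7e-04). ACSBG2, an acyl-CoA synthetase, the lower one, at averaged 90.8 ± 20.3 CPM at 20 weeks and 132 ± 15.1 CPM at 5 weeks (log2 fold change -0.54, adjusted p = 0.0051). Of 8 lysosomal hydrolases 2 were higher and none lower, a share of 25.0% beside 32.0% over all genes tested. They were ASAH1 and AGA, which trims glycoproteins (22.0 ± 1.75 CPM at 20 weeks and 15.6 ± 1.14 CPM at 5 weeks, log2 fold change 0.50, adjusted p = 0.0013).

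Of 13 enzymes of fatty acid oxidation 6 were lower and 1 was higher, a share of 53.8% beside 32.0% over all genes tested. The median log2 fold change was -0.32. ACADVL, the dehydrogenase of very long chains, had 122, 146, 137, 149 and 143 CPM at 20 weeks, against 186, 185, 187, 171 and 167 CPM at 5 weeks (log2 fold change -0.36, adjusted p = 0.0014). ACAD9 (log2 fold change -0.37, adjusted p = 9.9e-04), the peroxisomal oxidase ACOX3 (log2 fold change -0.49, adjusted p = 0.0022) and the short-chain dehydrogenase ACADS (log2 fold change -0.40, adjusted p = 0.012) were lower too. ACAA2, a mitochondrial thiolase, had the largest fall of the list (log2 fold change -0.62, adjusted p = 0.027), but its call ended without 20 weeks replicate JM75 or 5 weeks replicates JM100, JM101 or JM103 (adjusted p between 0.050 and 0.079). Fatty acid and sterol synthesis and activation had 4 members higher and 6 lower of 16, a share of 62.5%. Within it a pair of long-chain acyl-CoA synthetases went opposite ways. ACSL5 had 16.5, 7.46, 9.52, 19.9 and 9.48 CPM at 20 weeks, against 3.01, 2.42, 4.00, 6.24 and 6.09 CPM at 5 weeks (log2 fold change 1.53, standard error 0.36, adjusted p = 0.0023), while ACSL6, the form known from neurons, averaged 70.4 ± 14.9 CPM at 20 weeks and 101.03 ± 9.57 CPM at 5 weeks (log2 fold change -0.52, adjusted p = 0.0028).

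Among the proteoglycans of the brain matrix both aggrecan copies were higher and brevican was lower. ACANA, a copy of aggrecan, the core protein of perineuronal nets, had 97.2, 143, 168, 134 and 122 CPM at 20 weeks, against 59.7, 70.7, 55.9, 59.7 and 71.6 CPM at 5 weeks (log2 fold change 1.06, standard error 0.22, adjusted p = 8.8e-04). The second copy, ACANB, averaged 30.2 ± 5.32 CPM at 20 weeks and 16.9 ± 1.25 CPM at 5 weeks (log2 fold change 0.84, adjusted p = 0.0011). Brevican, the related proteoglycan BCAN, had 115, 265, 243, 255 and 168 CPM at 20 weeks, against 369, 366, 351, 352 and 354 CPM at 5 weeks (log2 fold change -0.78, standard error 0.21, adjusted p = 0.0064). The young brains lay close together in BCAN, and the mid-life brains scattered below them with JM75 lowest. No other of the 13 matrix genes was called, which made a share of 23.1% beside 32.0% over all genes tested. ASPN, a small proteoglycan of connective tissue, averaged 1.10 ± 0.698 CPM at 20 weeks and 2.74 ± 3.30 CPM at 5 weeks with 1 young library, JM97, far above the others, and missed the threshold (adjusted p = 0.064), being called without 20 weeks replicate JM84 or 5 weeks replicates JM100 or JM103 (adjusted p between 0.029 and 0.048). With 1 library left out the log2 fold change of ASPN ranged from -1.75 to -0.19. Its adjusted p reached 0.76 among all alternatives. Of 34 ADAM and ADAMTS proteases 4 were higher and 4 lower, a share of 23.5% beside 32.0% over all genes tested. ADAMTS15 (2 OF 2), of a group that cuts aggrecan in mammals, averaged 1.52 ± 0.343 CPM at 20 weeks and 3.54 ± 0.958 CPM at 5 weeks (log2 fold change -1.21, adjusted p = 0.0014). ADAMTS12 averaged 9.99 ± 2.39 CPM at 20 weeks and 18.5 ± 1.11 CPM at 5 weeks (log2 fold change -0.89, adjusted p = 0.0059). ADAM15 was higher (log2 fold change 0.52, adjusted p = 0.013), a call that ended without 5 weeks replicate JM100 (adjusted p of 0.053).

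Few synaptic genes passed the test. Of 39 genes 3 were higher and 1 was lower, the BASP1 given above, a share of 10.3% beside 32.0% over all genes tested. The median log2 fold change was 0.05. BAIAP2 (2 OF 2), a postsynaptic scaffold also known as IRSp53, had 47.0, 58.0, 85.9, 124 and 123 CPM at 20 weeks, against 44.0, 37.5, 51.6, 37.4 and 36.8 CPM at 5 weeks (log2 fold change 1.08, standard error 0.27, adjusted p = 0.0036). JM84 and JM86 were high and JM75 overlapped the young brains. BAI1 (3 OF 3), an adhesion receptor, was higher (log2 fold change 0.59, adjusted p = 0.035), and the call ended without 20 weeks replicates JM82, JM84 or JM86 or 5 weeks replicates JM100, JM103 or JM97 (adjusted p between 0.052 and 0.13). Of 21 genes of the vacuolar proton pump, which also fills synaptic vesicles, 1 was higher and 1 lower, a share of 9.52%. The lower one was ATP6V1A (2 OF 2), at a log2 fold change of -0.27. The higher one, ATP6V0E1 (log2 fold change 0.54, adjusted p = 0.029), lost its call without 20 weeks replicates JM79 or JM86 or 5 weeks replicate JM101 (adjusted p between 0.060 and 0.090).

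Of 7 clock and light-day genes 3 were higher and none lower, a share of 42.9% beside 32.0% over all genes tested. All 3 were repressors of the daily clock, and the list's median log2 fold change was 0.69. C19H1ORF51 (1 OF 2), whose human counterpart encodes the clock repressor CIART, had 4.79, 24.1, 43.7, 69.8 and 98.5 CPM at 20 weeks, against 6.02, 5.07, 4.51, 5.67 and 8.53 CPM at 5 weeks (log2 fold change 3.00, standard error 0.50, adjusted p = 9.9e-05). Library JM75 fell into the young range while the other mid-life libraries lay far above it. BHLHE41, a repressor of clock activators, had the same order of 20-week libraries, with 40.5, 141, 189.7, 204 and 250.4 CPM at 20 weeks, against 66.9, 62.5, 41.9, 64.3 and 73.2 CPM at 5 weeks (log2 fold change 1.42, standard error 0.28, adjusted p = 4.9e-04). BHLHE40, its close relative, had 252, 335, 287, 387 and 619 CPM at 20 weeks, against 137, 191, 195, 189.8 and 174 CPM at 5 weeks (log2 fold change 1.09, standard error 0.20, adjusted p = 2.7e-04), without overlap. In C19H1ORF51 (1 OF 2) and BHLHE41 the 20-week level rose with library number at each step from JM75 to JM86. In BHLHE40 the level of JM82 lay below that of JM79. A link of these levels to the order of collection or preparation was not tested. ARNTL2 (2 OF 2), a copy of a clock activator, averaged 8.64 ± 3.06 CPM at 20 weeks and 5.36 ± 0.398 CPM at 5 weeks and missed the threshold (adjusted p = 0.072), but was called without 20 weeks replicate JM75 (adjusted p of 0.039). The 7 genes summed to 492 to 1106 CPM at 20 weeks and 362 to 427 CPM at 5 weeks.

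Stress and cell death genes moved in both directions, while the autophagy genes called were mostly higher. In autophagy 10 of 20 members were called, 9 higher and 1 lower, beside 32.0% called and 15.4% called higher over all genes tested. Above 0 lay 15 of the 20 and below 0 lay 5, with a median log2 fold change of 0.22. The copies of the mitophagy receptor BNIP3L had the largest log2 fold changes of the list. BNIP3L (1 OF 2) had 365, 271, 271, 274 and 313 CPM at 20 weeks, against 157, 114, 214, 117 and 158 CPM at 5 weeks (log2 fold change 0.98, standard error 0.17, adjusted p = 1.2e-04). BNIP3L (2 OF 2) averaged averaged 183 ± 25.1 CPM at 20 weeks and 104 ± 14.5 CPM at 5 weeks (log2 fold change 0.81, adjusted p = 4.2e-06). BNIP3 averaged 122 ± 23.1 CPM at 20 weeks and 83.1 ± 8.83 CPM at 5 weeks (log2 fold change 0.55, adjusted p = 4.1e-04). None of the 3 overlapped between the ages, which held for 7 of the list's 20 members and for 19.8% of all genes tested. Of the core machinery, ATG13, which starts autophagosomes with the ULK kinases, averaged 59.6 ± 4.39 CPM at 20 weeks and 40.7 ± 2.80 CPM at 5 weeks (log2 fold change 0.55, adjusted p = 9.7e-05). BECN1, part of the lipid kinase that nucleates them, averaged 67.6 ± 5.09 CPM at 20 weeks and 47.9 ± 4.62 CPM at 5 weeks (log2 fold change 0.50, adjusted p = 7.0e-05). ATG9A, a membrane carrier, averaged 97.7 ± 12.6 CPM at 20 weeks and 69.4 ± 6.69 CPM at 5 weeks (log2 fold change 0.49, adjusted p = 0.0023). ATG4D (2 OF 2), a protease, averaged 26.9 ± 3.39 CPM at 20 weeks and 16.7 ± 2.72 CPM at 5 weeks (log2 fold change 0.69, adjusted p = 1.6e-04). The 20 members together took 1431 to 1704 CPM at 20 weeks and 1060.5 to 1289 CPM at 5 weeks.

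In the stress list 5 of 14 members were higher and 5 lower, a share of 71.4% beside 32.0% over all genes tested. ATF3, an early stress factor, averaged 7.53 ± 3.27 CPM at 20 weeks and 3.69 ± 0.957 CPM at 5 weeks (log2 fold change 1.03, adjusted p = 0.0067). BAG3, a co-chaperone, averaged 34.4 ± 4.22 CPM at 20 weeks and 25.2 ± 2.77 CPM at 5 weeks (log2 fold change 0.45, adjusted p = 0.0016). ATF5 (1 OF 2) averaged 28.5 ± 5.04 CPM at 20 weeks and 49.95 ± 5.24 CPM at 5 weeks (log2 fold change -0.81, adjusted p = 1.3e-04). ASNS, the asparagine synthetase induced by amino acid shortage, averaged 17.5 ± 1.90 CPM at 20 weeks and 31.5 ± 2.78 CPM at 5 weeks (log2 fold change -0.84, adjusted p = 6.1e-05). AHSA1, which activates the chaperone HSP90, averaged 70.2 ± 12.3 CPM at 20 weeks and 104 ± 9.90 CPM at 5 weeks (log2 fold change -0.57, adjusted p = 0.0041). Of 15 apoptosis genes 4 were higher and 5 lower, a share of 60.0%. The protective BCL2L1 (3 OF 3), a copy of Bcl-x, had 40.9, 38.2, 31.7, 37.1 and 42.3 CPM at 20 weeks, against 21.1, 24.0, 25.1, 24.2 and 22.9 CPM at 5 weeks (log2 fold change 0.70, standard error 0.10, adjusted p = 1.5e-05). APAF1, the core of the apoptosome, averaged 14.2 ± 3.02 CPM at 20 weeks and 24.4 ± 3.21 CPM at 5 weeks (log2 fold change -0.77, adjusted p = 1.5e-04). AIFM1, a mitochondrial flavoprotein released in cell death, averaged 81.2 ± 18.7 CPM at 20 weeks and 123 ± 14.9 CPM at 5 weeks (log2 fold change -0.60, adjusted p = 0.0027). BBC3, the death-promoting protein PUMA, was higher (16.7 ± 6.56 CPM at 20 weeks and 9.54 ± 2.49 CPM at 5 weeks; log2 fold change 0.81, adjusted p = 0.012), and its call ended without 20 weeks replicate JM75 (adjusted p of 0.055).

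Of 17 genes of the mitochondrial ATP synthase 6 were lower and none higher, with 15 of 17 below 0 and a median log2 fold change of -0.25. The share called was 35.3%, beside 32.0% called and 16.6% called lower over all genes tested. ATP5G3 (2 OF 2), a subunit of the rotor ring, had 104, 163, 156, 141 and 134 CPM at 20 weeks, against 240.4, 211, 278, 187 and 194 CPM at 5 weeks (log2 fold change -0.67, standard error 0.16, adjusted p = 0.0031). ATP5IB had a log2 fold change of -0.48, the assembly factor ATPAF2 of -0.51 and the catalytic-head subunit ATP5A1 of -0.34. ATP5B, the catalytic subunit, had -0.39, and its call ended without 20 weeks replicates JM75, JM84 or JM86 or 5 weeks replicate JM103 (adjusted p between 0.051 and 0.074). JM75 had the lowest level of the 20-week libraries in ATP5G3 (2 OF 2), ATP5IB and ATP5A1.

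Of 33 hormone and transmitter receptors 7 were higher and none lower, 21.2% called in all, which is below the 32.0% of all genes tested, with a median log2 fold change of 0.04. ADRB2A, a beta-adrenergic receptor, had 29.2, 18.4, 15.3, 21.5 and 27.9 CPM at 20 weeks, against 10.1, 12.6, 12.7, 13.6 and 10.8 CPM at 5 weeks (log2 fold change 0.91, standard error 0.21, adjusted p = 0.0022). ADRB1, of the same family, averaged 26.2 ± 5.77 CPM at 20 weeks and 16.8 ± 1.05 CPM at 5 weeks (log2 fold change 0.64, adjusted p = 0.0036), and the alpha-adrenergic receptors ADRA2A and ADRA2DA had log2 fold changes of 0.44 and 0.52. The vasopressin receptor AVPR1A (2 OF 2) averaged 6.75 ± 0.926 CPM at 20 weeks and 3.63 ± 0.619 CPM at 5 weeks (log2 fold change 0.89, adjusted p = 5.0e-04). ADORA2B, an adenosine receptor, averaged 8.36 ± 1.96 CPM at 20 weeks and 5.76 ± 0.359 CPM at 5 weeks (log2 fold change 0.54, adjusted p = 0.0078). BDKRB2 (1 OF 4), a bradykinin receptor, had 0.978, 0.574, 0.482, 0.621 and 3.40 CPM at 20 weeks, against 0.328, 0.589, 0.171, 0.744 and 0.600 CPM at 5 weeks (log2 fold change 1.29, adjusted p = 0.033). JM86 stood far above the young range and JM75 a little above it, and the call ended without 20 weeks replicate JM86 or 5 weeks replicates JM100 or JM103 (adjusted p between 0.083 and 0.37). Among 17 hormones, neuropeptides and growth factors 3 were higher and 1 lower, a share of 23.5% beside 32.0% over all genes tested. BDNF, the neurotrophin of activity-dependent plasticity, had 4.12, 3.27, 3.79, 5.90 and 7.21 CPM at 20 weeks, against 1.805, 3.06, 3.14, 2.06 and 2.86 CPM at 5 weeks (log2 fold change 0.91, standard error 0.21, adjusted p = 0.0019), without overlap. AREGB, a ligand of the epidermal growth factor receptor, had 0.875, 14.6, 15.7, 1.76 and 1.07 CPM at 20 weeks, against 0.820, 0.530, 0.514, 1.49 and 0.415 CPM at 5 weeks (log2 fold change 3.17, standard error 1.10, adjusted p = 0.030). It was high in 2 mid-life brains, JM79 and JM82, and near the young level in the other 3, and its call ended without 20 weeks replicates JM79 or JM82 or 5 weeks replicates JM100, JM101, JM103 or JM97 (adjusted p between 0.058 and 0.080).

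Of 27 ion pumps and water channels 4 were higher and 1 was lower, a share of 18.5% beside 32.0% over all genes tested. The lower one, the water channel AQP8 (2 OF 3), had 0.360, 0.230, 0.120, 0 and 1.67 CPM at 20 weeks, against 6.67, 2.30, 3.88, 0.973 and 1.66 CPM at 5 weeks (log2 fold change -2.71, standard error 0.65, adjusted p = 0.0029). JM86 of 20 weeks lay within the young range, and the other 4 below it. BEST3, a chloride channel, had 8.96, 7.69, 6.08, 4.66 and 10.8 CPM at 20 weeks, against 0.656, 0.648, 2.06, 5.04 and 0.876 CPM at 5 weeks (log2 fold change 2.05, standard error 0.48, adjusted p = 0.0023). The young library JM96 reached the mid-life range. ATP1B2 (1 OF 2), the beta subunit of the glial sodium pump, averaged 278 ± 9.61 CPM at 20 weeks and 238 ± 8.78 CPM at 5 weeks (log2 fold change 0.22, adjusted p = 0.0076). Of the genes of cilia 1 of 15 was lower, a share of 6.67% beside 32.0% over all genes tested. Below 0 lay 14 of the 15, with a median log2 fold change of -0.15. The 1 called was BBS7, a subunit of the BBSome (log2 fold change -0.42, adjusted p = 0.0013). Of those of motile cilia 2 of 9 were higher, a share of 22.2%, the first being ARMC3 (2.42 ± 0.728 CPM at 20 weeks and 0.975 ± 0.452 CPM at 5 weeks; log2 fold change 1.29, adjusted p = 0.0016).

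Further genes stood among the 15 with the largest rise. ARID5A, a member of the chromatin list and in mammals a protein that stabilizes inflammatory transcripts, averaged 5.54 ± 2.48 CPM at 20 weeks and 2.37 ± 0.544 CPM at 5 weeks (log2 fold change 1.22, adjusted p = 0.0012). C13H10ORF54, whose human counterpart encodes the immune checkpoint protein VISTA, averaged 12.7 ± 5.74 CPM at 20 weeks and 6.17 ± 1.24 CPM at 5 weeks (log2 fold change 1.04, adjusted p = 0.0011). C19H9ORF91 averaged 5.33 ± 2.50 CPM at 20 weeks and 2.42 ± 0.611 CPM at 5 weeks (log2 fold change 1.14, adjusted p = 0.0013). In all 3 of these genes JM86 had the highest level. BX664721 had the largest log2 fold change of the 15, 2.93 (adjusted p = 0.0034), at 1.15 to 6.26 CPM at 20 weeks and 0.109 to 0.784 CPM at 5 weeks. BX005223 had a log2 fold change of 1.05, with an adjusted p of 7.6e-04.

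Between 20 and 12 weeks few genes passed the test. In the same model, 20 against 12 weeks gave 8 genes higher and 1 lower (0.0546% of genes tested), none of them with a name, with 1646 genes at an unadjusted p under 0.05 and 57 called by DESeq2. That count was 2 without 5 weeks replicates JM100, JM101, JM96 or JM97 or without 20 weeks replicates JM79 or JM86, and 14 without JM82 or JM84, while no library of 12 weeks was left out. As no called gene had a name, the 15 and 15 genes named by size of change were not among them. Their lowest adjusted p of 20 against 12 weeks was 0.21 for the higher and 0.42 for the lower genes. At 12 weeks BORA averaged 0.552 ± 0.222 CPM, ASPM 3.86 ± 1.69 CPM and ASCL1B 6.06 ± 1.61 CPM, each nearer to the mean of 20 than to that of 5 weeks. AIF1 averaged 7.52 ± 1.01 CPM at 12 weeks and APCS 15.0 ± 3.50 CPM, which lay between the levels of 20 and 5 weeks, with an adjusted p of 20 against 12 weeks of 0.44 and 0.36. ASPA averaged 62.0 ± 10.97 CPM at 20 weeks and 54.5 ± 10.1 CPM at 12 weeks, and BCAN 209 ± 65.0 CPM at 20 weeks and 215 ± 31.7 CPM at 12 weeks. The comparisons of 12 and of 20 with 5 weeks share the 5-week libraries.

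The contrast of 39 against 20 weeks gave 9 genes higher and 36 lower (0.273% of genes tested). The 3 with a name were ANKRD34A, ATP5SL and BATF3. At an unadjusted p under 0.05 there were 2852 genes, and DESeq2 called 520. This count changed with the library left out, with 353 calls without 20 weeks replicate JM75 and 3 without JM84, 4 without JM79, 7 without JM86, and 9 to 13 without 5 weeks replicates JM100, JM101, JM96 or JM97. The 5-week libraries are not in this contrast and enter it only through the shared model. The cause of these changes was not tested. No library of 39 weeks was left out. BATF3 averaged 3.50 ± 0.704 CPM at 39 weeks and 6.59 ± 2.31 CPM at 20 weeks (adjusted p = 0.048), beside 3.08 ± 0.342 CPM at 5 weeks, and this call was lost in 10 of 20 alternatives, where the adjusted p reached 0.16. At 39 weeks BORA averaged 0.201 ± 0.143 CPM, ASPM 0.842 ± 0.499 CPM, AIF1 11.2 ± 3.69 CPM and APCS 33.1 ± 14.4 CPM, and none of these passed the test against 20 weeks (adjusted p of 0.91, 0.46, 0.85 and 0.50 in that order).

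**Figure D5:**
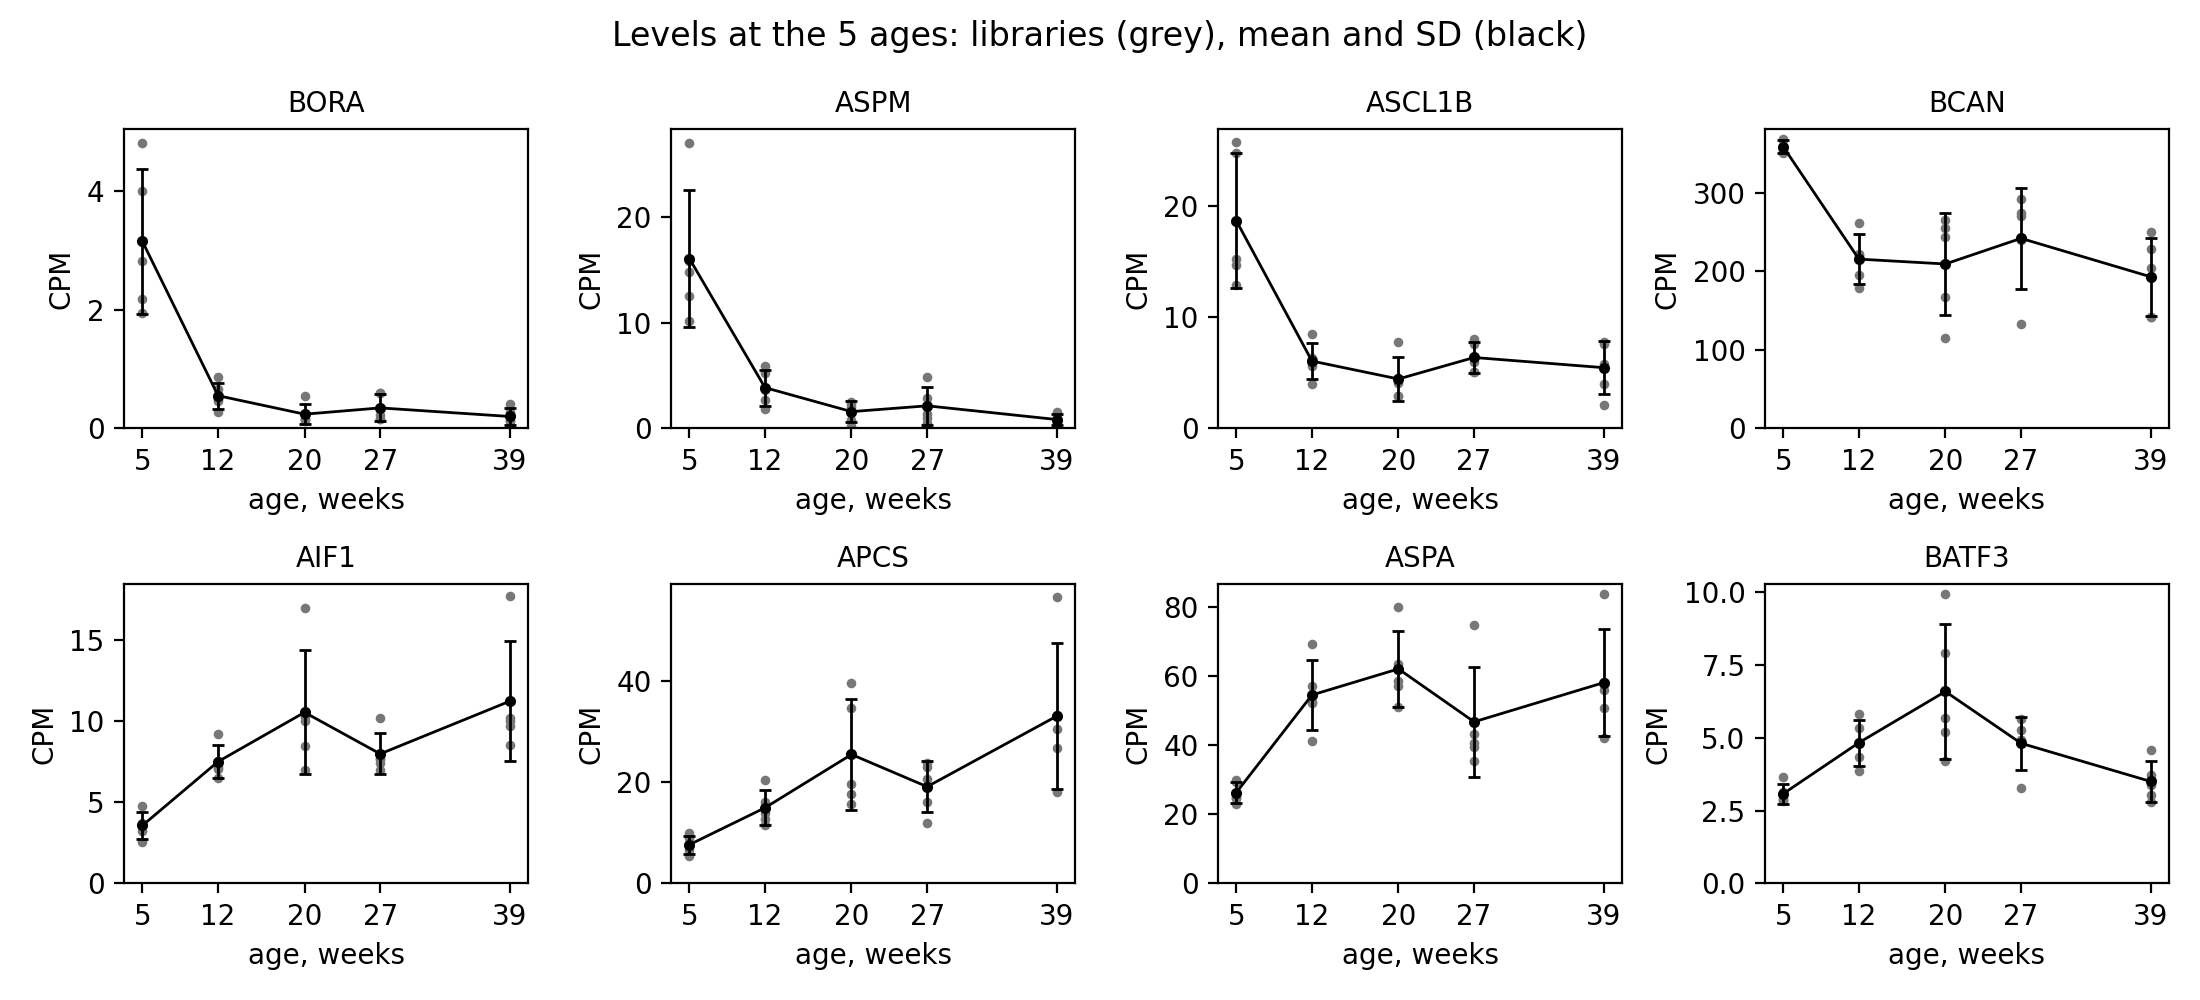
Levels of 8 genes at 5, 12, 20, 27 and 39 weeks, in CPM, with single libraries in grey and mean ± SD (n = 5 per age) in black. The means of BORA, ASPM, ASCL1B and BCAN are highest at 5 weeks, those of AIF1, APCS and ASPA lowest at 5 weeks, and BATF3 has its highest mean at 20 weeks.

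Markers of other tissues were read to check the dissections. Neuronal and glial markers were present in every library, with summed levels of 3476 to 4389 CPM at 20 weeks and 4174 to 4648 CPM at 5 weeks for 6 neuronal genes, and 3032 to 3371 CPM at 20 weeks and 2598 to 2977 CPM at 5 weeks for 7 genes of radial glia and astroglia. Of the 7 glial genes 2 were higher and none lower, a share of 28.6% beside 32.0% over all genes tested. All 7 had a positive log2 fold change. ALDH1L1, an astroglial enzyme, averaged 169.6 ± 44.8 CPM at 20 weeks and 115 ± 11.5 CPM at 5 weeks. It missed the threshold (adjusted p = 0.051), being called without 20 weeks replicates JM79 or JM82 (adjusted p between 0.028 and 0.049). The 11 muscle genes summed to 146, 196, 182, 311 and 283 CPM at 20 weeks and 175, 145, 239, 718 and 383 CPM at 5 weeks, so that 5-week library JM96 had the highest sum. ACTC1B, a muscle actin, had 78.8 to 162 CPM at 20 weeks and 90.3 to 437 CPM at 5 weeks and was not called (log2 fold change -0.76, adjusted p = 0.058), though it passed the test without 20 weeks replicate JM84 or 5 weeks replicates JM100, JM101 or JM103 (adjusted p between 0.018 and 0.047). With 1 library left out the log2 fold change of ACTC1B ranged from -0.95 to -0.27. Its adjusted p reached 0.69 among all alternatives. The 1 muscle marker called, a share of 9.09% of the 11, was APOBEC2 (2 OF 2), higher at 20 weeks (log2 fold change 0.79, adjusted p = 0.0056). Genes of pineal, retina and lens summed to 16.5 to 34.8 CPM at 20 weeks and 28.2 to 35.9 CPM at 5 weeks. Of these 1 of 9 was called, a share of 11.1%, the cone arrestin ARR3 (1 OF 2), which was lower (log2 fold change -1.16, adjusted p = 0.0073). Liver and plasma genes had 8 of 10 members above 0 and a median log2 fold change of 0.29. Of the 10 members 1 was higher and 1 lower, a share of 20.0% beside 32.0% over all genes tested. Their sum, 1889 to 2702 CPM at 20 weeks and 2763 to 3977 CPM at 5 weeks, consisted mostly of APOA1 and AHSG, a plasma glycoprotein, which were the 2 members below 0. Genes of skin, bone and fin had 2 of 8 members lower and none higher, a share of 25.0% beside 32.0% over all genes tested. Below 0 lay 7 of them and above 0 lay 1, with a median log2 fold change of -0.47. They summed to 9.90 to 19.2 CPM at 20 weeks and 14.6 to 31.9 CPM at 5 weeks. The part of such tissue in the differences above was not tested. Without JM96 and JM75 together, an alternative chosen after seeing the data, 1995 genes were higher and 2313 lower.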

How the data were processed

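RNA of whole brains was sequenced from 25 male fish, 5 at each of 5 ages. The authors deposited counts of reads per contig, without normalization, and a second count table on gene models. The submitters' notes name CASAVA, Bowtie, TopHat2 2.0.6 and featureCounts 1.4.3-p1 with no role, and the genome build and strand setting are not given in the sources used here. The count table carries no gene names. Names came from an annotation table of the study held from A to C1QL4. That annotation gives a mean RPKM at each of the 5 ages. These were compared with age means of the RPKM that the authors deposited per library beside the counts. The shares over the 5 ages matched those of 1 contig for 1994 of 1999 names. RPKM served no other use. The annotation's columns of the authors' calls were not used.

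Counts were tested with edgeR 4.0.16 in R 4.3.3 (TMM factors, filterByExpr, quasi-likelihood test, 1 coefficient per age over all 25 libraries, Benjamini-Hochberg adjustment over 16484 genes). CPM are per TMM-scaled library size and n = 5 animals per age in every mean ± SD. The code was tested on simulated data. Named were the 15 genes of each direction with the largest log2 fold change among called genes with at least 1 CPM at the higher age and no overlap, up to 5 members of each list, and markers. A gene named beyond this rule was chosen after its values were seen. Members and lists were chosen with earlier results of these data known. Library totals of the 10 libraries were 16501691 to 20996007 counts. Alternatives were other scalings, filters, DESeq2 1.42.0, the 10 libraries alone, the w0w1 mark as a factor or left out, robust estimation, the later table, and each of the 10 libraries of 20 and 5 weeks left out in turn. Libraries of the other ages were not left out singly.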

Additional observations from a re-analysis of the deposited data

Results flagged for a closer look

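In 17 of 274 groups of 5 libraries, 1 library stood apart from the other 4 of its age, by a gap of more than 0.71 of the group's range. For normally distributed values of genes not chosen by those values, chance alone gives about 1 group in 20. The groups here hold CPM of genes chosen in part by their values, so that rate is only a rough guide. The gaps are given as a share of the range.

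At 20 weeks JM86 was high in BDKRB2 (1 OF 4), a bradykinin receptor (3.40 CPM against at most 0.978 in the others, gap 0.830), AQP8 (2 OF 3), a water channel (1.67 against at most 0.360 CPM, gap 0.784), APOL2 (7.51 against at most 2.32 CPM, gap 0.725) and ARID5A (9.84 against at most 5.46 CPM, gap 0.717). It was low in the phospholipid pump ABCA7 (15.98 against at least 19.5 CPM, gap 0.760). JM75 was low in the peroxisomal oxidase ACOX3 (16.9 against at least 20.2 CPM, gap 0.815), the axonal protein BASP1 (570.3 against at least 797 CPM, gap 0.750) and the ATP synthase subunit ATP5IB (60.3 against at least 76.7 CPM, gap 0.716). JM84 was high in BX664721 (6.26 against at most 2.41 CPM, gap 0.753) and JM82 in the mitotic cofactor BORA (0.542 against at most 0.230 CPM, gap 0.739), below every young brain.

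At 5 weeks JM101 was high in the complement gene C1QC (8.19 against at most 5.25 CPM, gap 0.839) and low in ATP6V0E1 (1.24 against at least 2.06 CPM, gap 0.770) and BATF (5.01 against at least 6.34 CPM, gap 0.738). JM103 was high in ATF5 (1 OF 2) (58.95 against at most 48.8 CPM, gap 0.737) and APOL2 (0.571 against at most 0.277 CPM, gap 0.737), and low in BRCA2 (8.34 against at least 12.1 CPM, gap 0.766). JM97 was high in ASPN, a connective tissue proteoglycan (8.63 against at most 1.55 CPM, gap 0.911).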

How the results depend on the processing

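The count of genes called at 20 against 5 weeks stayed within 1.5 times of 5270 under each of 22 alternatives, between 4119 (without 5 weeks replicate JM100) and 5417 (without 20 weeks replicate JM79) when 1 of the 10 libraries of 20 and 5 weeks was left out, the only libraries left out singly. Without the 6 libraries marked w0w1 it was 1858 higher and 2041 lower, and with library totals alone 2246 higher and 3144 lower. Genes of at least 2-fold numbered 1237 in the later count table, which has more features tested (20169), against 760. For 20 against 12 weeks the count of 9 was 57 with DESeq2, 4 in the later table and 0 without the marked libraries, and 2 to 14 with 1 of those 10 libraries left out. For 39 against 20 weeks the count of 45 was 520 with DESeq2, 14 with no filter, 18 with the mark as a factor, 17 in the later table, 0 without the marked libraries and 307 without both JM96 and JM75 (chosen after seeing the data), and 3 to 353 with 1 of those 10 libraries left out. The cause of these differences was not tested. List medians moved in 4 of 28 lists. Clock genes gave 0.47 (0.69 in the main analysis) and microglia, leukocytes and complement 0.66 (0.94) without the marked libraries, mitosis and cytokinesis -1.03 (-1.47) with at least 10 counts in each library, where fewer members remain, and extracellular matrix -0.028 to 0.20 (0.02) with 1 library left out, highest without 5 weeks replicate JM97. Of 128 called genes followed, 102 kept their call under each alternative in which they were tested and none changed sign. These alternatives numbered at most 21, and fewer for low genes that drop out under a filter. Single genes were not followed in the later count table. A8HG53_ORYLA, ACADS, ARR3 (1 OF 2), BIN2B and BLNK lost theirs only without the marked libraries (adjusted p between 0.051 and 0.062 by edgeR). BOP1 lost its call in a fit of the 10 libraries alone (adjusted p of 0.056), as did ATP6V0E1 and BDKRB2 (1 OF 4) (0.052 and 0.12). Without the marked libraries calls also ended for ADAM15, ALOX5AP, APOL2, ATMIN, ATOH1C, ATP6V0E1, BAI1 (3 OF 3), BBC3, BDKRB2 (1 OF 4), BYSL and C1QC (adjusted p between 0.052 and 0.23). Without both JM96 and JM75 they ended for ACAA2, ADRA2A, ALAS2, ALOX5AP, ATMIN, ATOH1C, ATP5B, BAI1 (3 OF 3), BBC3, BPGM, BYSL and C1QC (0.057 to 0.19), and with the mark as a factor for AREGB (0.050). Genes that missed the threshold passed it in some alternatives, which were DESeq2 for ABCA1B, ALDH1L1, ASPN, BA1 and C1QB (0.032 to 0.048), the 10 libraries alone for ABCA1B, ALDH1L1, ARNTL2 (2 OF 2) and BA1 (0.0056 to 0.033), library totals for ABCA1B, ACTC1B and BA1 (0.042 to 0.049), at least 10 counts in each library for ABCA1B, ALDH1L1 and C1QB, and RLE factors for ABCA1B. BA1 also passed it without the marked libraries (0.023). In other alternatives these genes lay further from the threshold, with a highest adjusted p between 0.12 for BA1 and 0.76 for ASPN. BATF, not called, ranged over log2 fold changes of -0.11 to 0.49 with 1 library left out, lowest without 20 weeks replicate JM82. No paired analysis was possible because the libraries carry animal numbers that the ages do not share. Names cover a part of the alphabet, so lists hold a part of their pathways. Genes near or under 1 CPM, such as ALOX5AP and BDKRB2 (1 OF 4), and BORA at 20 weeks, rest on few reads.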
